A study of Mus musculus with 15 samples.

Results

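Mitochondrial ribosomal protein genes were described in cultured mouse lymph node lymphatic endothelial cells given the growth factor VEGF-C. They were taken as every gene of the deposited table whose name is Mrpl or Mrps followed by a number and at most 1 letter. This gave 77 of 45706 genes, and 5 names marked as pseudogenes were left out. Of the 77, 48 carry an Mrpl name, given for the large ribosomal subunit, and 29 an Mrps name, given for the small subunit. Mrps18a, Mrps30 and Mrps36 are exceptions described below, so a split by name is not exactly a split by subunit. The cells were Pdpn+ CD31+ CD45- cells of female C57Bl/6 mice, taken from pooled nodes of the axillary, brachial, cervical, inguinal and popliteal sites, and every group grew in MEMα medium with fetal bovine serum, penicillin and streptomycin. The groups were unstimulated cells and cells given 10 or 100 ng/mL of purified recombinant murine VEGF-C, made in HEK-293E cells, for 72 h, with 5 libraries each, lettered A to E. Messenger RNA was selected by its poly-A tail and sequenced with a stranded kit.

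Mitochondria carry their own ribosomes, which translate only the few proteins encoded in mitochondrial DNA, all of them subunits of the respiratory chain and ATP synthase in the inner membrane. The rRNAs of both subunits, mt-Rnr1 and mt-Rnr2, are transcribed from mitochondrial DNA, while every protein of this ribosome is encoded in the nucleus, made in the cytosol and imported. Some of these proteins descend from bacterial ribosomal proteins and others are found only in mitochondria. Endothelial cells draw much of their ATP from glycolysis, and their mitochondria are also known for biosynthetic and signalling roles.

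The promoters of 6 members that differed at 100 ng/mL are shown first, as RefSeq gives them on GRCm38.p6 (250 bases before to 50 bases after the gene start, gene strand, 5′ to 3′). All 6 hold letters of a motif searched, so they do not stand for every member that differed. Mrpl50 and Mrps2, which were higher, and Mrps16, which was lower, are not printed. Of the 6 promoters shown, 4 belong to genes that were higher at 100 ng/mL than in unstimulated cells. These 4 together show the letters of each motif searched. The other 2, Mrps23 and Mrpl9, belong to genes that were lower. The 6 promoters lie at chr7:105811038-105811337 (minus strand), chr17:46110754-46111053 (plus), chr13:99344536-99344835 (plus), chr4:107066817-107067116 (minus), chr11:88204138-88204437 (plus) and chr3:94443086-94443385 (plus). Capitals mark exact matches on either strand to the NRF1 motif, CCGGAAG (the core of ETS factors such as GABPA), the YY1 motif or CACGTG (the E-box of MYC and its relatives). NRF1, GABPA and YY1 are textbook regulators of nuclear genes for mitochondrial proteins.
Mrpl17 promoter: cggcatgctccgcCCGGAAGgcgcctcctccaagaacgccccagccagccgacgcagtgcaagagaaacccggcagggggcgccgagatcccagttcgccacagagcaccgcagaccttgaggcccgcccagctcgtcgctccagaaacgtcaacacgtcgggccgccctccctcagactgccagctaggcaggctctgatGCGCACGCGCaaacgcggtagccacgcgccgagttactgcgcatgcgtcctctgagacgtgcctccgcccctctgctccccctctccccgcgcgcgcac
Mrps18a promoter: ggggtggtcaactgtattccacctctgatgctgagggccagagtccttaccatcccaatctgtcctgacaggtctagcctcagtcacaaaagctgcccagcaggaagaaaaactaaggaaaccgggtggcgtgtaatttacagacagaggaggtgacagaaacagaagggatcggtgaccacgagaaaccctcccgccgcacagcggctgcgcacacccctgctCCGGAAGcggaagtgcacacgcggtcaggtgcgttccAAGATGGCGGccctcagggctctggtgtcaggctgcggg
Mrps27 promoter: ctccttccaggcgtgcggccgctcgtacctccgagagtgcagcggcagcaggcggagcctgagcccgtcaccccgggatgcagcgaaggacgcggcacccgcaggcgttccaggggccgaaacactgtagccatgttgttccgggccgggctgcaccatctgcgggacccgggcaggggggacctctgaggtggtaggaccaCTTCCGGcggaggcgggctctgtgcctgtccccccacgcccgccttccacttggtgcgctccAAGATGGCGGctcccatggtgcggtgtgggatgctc
Mrpl37 promoter: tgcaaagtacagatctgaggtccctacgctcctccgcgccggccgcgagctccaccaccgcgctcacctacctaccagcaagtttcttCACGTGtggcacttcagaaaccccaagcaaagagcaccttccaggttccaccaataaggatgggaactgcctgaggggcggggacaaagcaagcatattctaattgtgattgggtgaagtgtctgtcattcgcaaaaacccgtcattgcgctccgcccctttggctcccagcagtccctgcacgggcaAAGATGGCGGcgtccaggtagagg
Mrps23 promoter: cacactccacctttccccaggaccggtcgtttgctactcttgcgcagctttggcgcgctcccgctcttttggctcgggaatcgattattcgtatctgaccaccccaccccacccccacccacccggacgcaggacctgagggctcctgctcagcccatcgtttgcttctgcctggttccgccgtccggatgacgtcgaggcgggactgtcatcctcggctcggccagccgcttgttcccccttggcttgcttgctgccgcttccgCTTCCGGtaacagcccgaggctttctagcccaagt
Mrpl9 promoter: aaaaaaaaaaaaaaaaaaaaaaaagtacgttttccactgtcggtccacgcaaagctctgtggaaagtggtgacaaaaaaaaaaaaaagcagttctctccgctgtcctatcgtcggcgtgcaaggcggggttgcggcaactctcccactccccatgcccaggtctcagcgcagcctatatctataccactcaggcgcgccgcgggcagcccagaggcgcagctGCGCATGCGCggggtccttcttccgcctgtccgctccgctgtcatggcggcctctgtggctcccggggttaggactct

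RefSeq promoters were matched for 68 of the 77 members, 74 promoters in all. Of these 74 promoters, 42 (56.8%) held at least 1 of the 4 motifs, against 18.8% of 32851 promoters in the table. Those 32851 belong to 27025 genes, whether or not tested here, and were not matched to the members for expression or base content. The ETS letters were in 33.8% of member promoters, against 8.86% of all. NRF1 letters were in 17.6%, against 4.6% of all, and YY1 letters in 6.76%, against 0.852% of all. The E-box was in 9.46% of member promoters, close to the 7.15% of all promoters. The promoter of Mrpl17 holds ETS and NRF1 letters, those of Mrps18a and Mrps27 ETS and YY1 letters, and that of Mrpl37 an E-box and YY1 letters. In the last 3 the YY1 letters begin 11, 14 and 26 bases past the listed start. Promoters of other members called higher, such as Mrpl50 and Mrps2, hold none of the 4 motifs. Members without a printed promoter that are described in full are the genes Mrpl15 (chr1:4773206-4785739), Mrpl50 (chr4:49512596-49521093), Mrps2 (chr2:28468066-28471178), Mrpl1 (chr5:96209493-96266727) and Mrps16 (chr14:20389304-20393634), in GENCODE M21 on GRCm38. A match is a description of the letters in this window and no evidence of binding.

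Library totals ran from 27784906 to 38590841 estimated counts. All 6 genes of the lymphatic endothelial list, which also holds the general endothelial genes Pecam1 and Cdh5, were detected. The 4 called higher at 100 ng/mL were Flt4, Lyve1, Pecam1 and Cdh5. Prox1 and Pdpn were not called, with log2 differences of 0.98 ± 0.40 and 0.30 ± 0.30 (SE, edgeR adjusted p = 0.0589 and 0.453). Flt4, the VEGF-C receptor, had 1580 ± 258 CPM (counts scaled to library size by TMM) at 100 ng/mL against 615 ± 87.9 CPM in unstimulated cells (SD, n = 5 each), and Pecam1, which encodes CD31, had 1610 to 1970 CPM against 1440 to 1700 CPM in unstimulated cells. Markers of other cells differed at 100 ng/mL, while at 10 ng/mL none of them was called against unstimulated cells. Of 11 tested fibroblastic and mural markers 10 were called lower at 100 ng/mL, and the list summed to 122.4 to 555.5 CPM at 100 ng/mL against 1988.8 to 3574.7 CPM in unstimulated cells. Of 8 tested leukocyte markers 7 were called lower, with sums of 13 to 30.8 CPM at 100 ng/mL against 41 to 129.9 CPM in unstimulated cells. Of 5 blood endothelial markers 2 were called higher and 2 lower, and of 4 tested epithelial markers 1 was called higher and 2 lower. Among the blood endothelial markers, Emcn and Plvap had means of 2060 and 1380 CPM in unstimulated cells. Vwf, Sox17 and Aplnr had 48.5, 4.33 and 0.0642 CPM there. Lum, Epcam and Cd3e did not exceed 0.159 CPM anywhere. Libraries 100 ng/mL B, 10 ng/mL D and unstimulated E held their group's highest value in 58.7, 56 and 61.3% of the tested members and in 32.8, 31.6 and 30.9% of all genes tested, and counts are also given without these 3 libraries. Library 100 ng/mL C held the highest value in 32.9% of all genes tested but in 5.33% of the members.

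The members were expressed throughout and changed little in size at 100 ng/mL of VEGF-C. Of the 77 members 75 passed the filter on low counts, 47 Mrpl and 28 Mrps genes. At 100 ng/mL against unstimulated cells, 18 of the 75 were called higher and 3 lower (edgeR quasi-likelihood test, Benjamini-Hochberg adjusted p under 0.05 over 17650 genes). That is 24% higher and 4% lower, against 21.4% higher and 21.5% lower among all genes tested, so the share called higher was near the background and the share called lower was below it. In either direction 28% of members were called, against 42.9% of all genes, and 25 members had an unadjusted p under 0.05, against 50.2% of all genes. The median log2 fold change was 0.06 over the members and 0.01 over all genes. Among the members 64 of 75 (85.3%) lay within 15% of no change, against 45.6% of all genes tested. Mrpl17 alone was both called and past 1.5-fold, where 7.83% of all genes were so on the higher side. The groups did not overlap in 8 members on the higher side and 1 on the lower side, where 13.5 and 13.7% of all genes tested did not overlap. Without 100 ng/mL B, 10 ng/mL D and unstimulated E the counts were 16 higher and 1 lower, with 46.7% of all genes then called. The members' median was 0.12 without unstimulated E and 0.11 without 100 ng/mL C, and it was 0.04 without unstimulated C and 0.02 without 100 ng/mL B. Without 100 ng/mL C, 19 members were called higher. The number called lower was 1 without unstimulated E or 100 ng/mL E and 5 without 100 ng/mL B. In bulk RNA, fewer cells of a type and less RNA per cell cannot be told apart. The part of the falling fibroblastic, mural and leukocyte markers in these values was not tested. Nothing in the labels tells whether libraries A to E came from separate cultures, and the p-values then cover library-to-library spread alone, part of which may be technical.

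**Figure D1:**
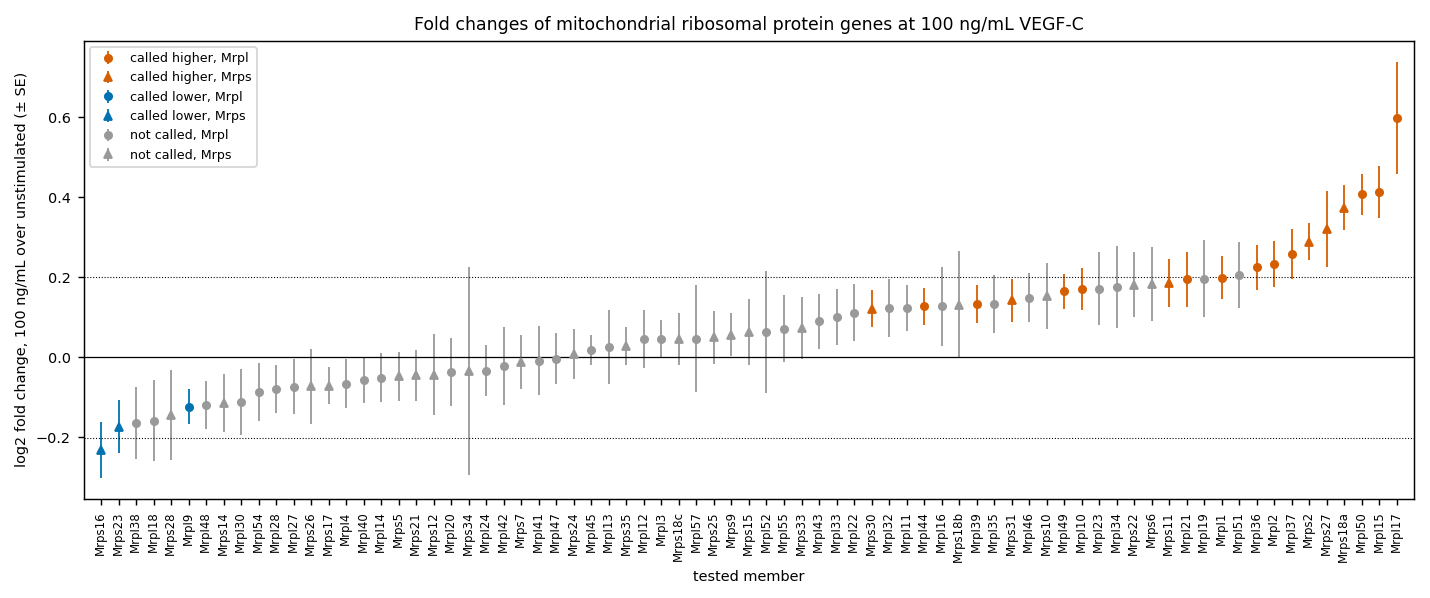
Each point is 1 of the 75 tested members, ordered by its log2 fold change at 100 ng/mL over unstimulated cells on the vertical axis, with its standard error as a bar; circles are Mrpl and triangles Mrps genes, coloured by the call, and dotted lines mark a 15% change either way. Most members lie between the dotted lines, and Mrpl17 at 0.60 stands above the rest.

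Proteins of the large subunit that descend from bacterial ones numbered 30 tested genes, of which 7 were called higher and 1 lower, 23.3 and 3.33% against 21.4 and 21.5% of all genes tested. Mrpl17, a protein near the exit of the tunnel through which the new chain leaves, had 85.2, 91.5, 54.2, 84.8 and 69.8 CPM in libraries A to E at 100 ng/mL. In unstimulated A to E it had 47.3, 48.0, 45.5, 48.9 and 65.1 CPM. The groups overlapped only because 100 ng/mL C was below unstimulated E, and the log2 fold change was 0.60 ± 0.14 (SE, edgeR adjusted p = 0.00315). It was 0.70 without 100 ng/mL C, 0.70 without unstimulated E, and 0.63 without the 3 libraries named above. Mrpl15, a homologue of bacterial L15 in the core of the subunit, had 50.8, 56.3, 46.0, 52.6 and 47.0 CPM at 100 ng/mL against 35.1, 37.2, 36.4, 40.0 and 41.0 CPM in unstimulated cells. All 5 treated libraries were above all 5 unstimulated ones, with a log2 fold change of 0.41 ± 0.07 (SE, edgeR adjusted p = 0.000132). Mrpl2, which lies beside the peptidyl transferase centre, had 36.5 to 43 CPM at 100 ng/mL against 31.3 to 36.8 CPM in unstimulated cells. Its groups overlapped by 1 library on either side, and it was called higher by 0.23 ± 0.06 on the log2 scale (edgeR adjusted p = 0.00394). Mrpl36, the small zinc-binding homologue of bacterial L36, had 30.6 to 35.9 CPM against 27.4 to 30.5 CPM in unstimulated cells and was called higher by 0.23 ± 0.06 (edgeR adjusted p = 0.00468). The remaining called member of this class that rose, beside the stalk proteins described next, was Mrpl21, higher by 0.20 ± 0.07 and outside the naming rule.

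The stalks are the mobile arms of the large subunit. Mrpl1, the protein of the arm that moves with the tRNA leaving the ribosome, had 21.7, 21.9, 20.8, 21.8 and 21.9 CPM at 100 ng/mL against 18.4, 19.4, 18.9, 20.2 and 17.3 CPM in unstimulated A to E. The groups did not overlap, and the log2 fold change was 0.20 ± 0.05 (edgeR adjusted p = 0.00676). Of the proteins of the other arm, which recruits translation factors, Mrpl10 was called higher by 0.17 ± 0.05, with 33.5 ± 1.36 CPM at 100 ng/mL against 29.8 ± 1.48 CPM in unstimulated cells (SD, n = 5 each, edgeR adjusted p = 0.0149). Its partners on that arm were not called. Mrpl11, at the base of the arm, differed by 0.12 ± 0.06 (edgeR adjusted p = 0.0937), and Mrpl12, which binds the factors, by 0.05 ± 0.07 (edgeR adjusted p = 0.643). Mrpl12 had 17.1 to 23.2 CPM at 100 ng/mL, a range that held that of the unstimulated cells, 19.5 to 21.1 CPM.

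Large-subunit proteins found only in mitochondria were called higher in 6 of 18 tested genes (33.3%, against 21.4% of all genes tested) and lower in 0 (against 21.5%). Mrpl50 had the smallest adjusted p of all members, with 42.7, 45.2, 39.7, 42.3 and 39.6 CPM at 100 ng/mL against 30.2, 34.0, 30.7, 32.5 and 30.6 CPM in unstimulated A to E. The lowest treated library was well above the highest unstimulated one, and the log2 fold change was 0.41 ± 0.05 (edgeR adjusted p = 1.72e-05). Mrpl37 had 53.1 to 56.1 CPM in 4 libraries at 100 ng/mL and 44.5 CPM in library C, against 41.2 to 46.7 CPM in unstimulated cells. It overlapped through library C alone and was called higher by 0.26 ± 0.06 (edgeR adjusted p = 0.00334). Mrps30, which carries a small-subunit name but sits in the large subunit of mammals, differed by 0.12 ± 0.05 (edgeR adjusted p = 0.0468) and was called in 3 of 15 fits that left out 1 library. The other called genes of this class, named to complete the count, were Mrpl49, Mrpl39 and Mrpl44, higher by 0.17 ± 0.04, 0.13 ± 0.05 and 0.13 ± 0.05. Mrpl45, which anchors the ribosome at the inner membrane near the tunnel exit, had 20.7 ± 0.446 CPM at 100 ng/mL and 20.5 ± 0.505 CPM in unstimulated cells (SD, n = 5 each) and the log2 difference was 0.02 ± 0.04.

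The 3 homologues of bacterial S18 gave different values. Mrps18a, which in mammals is built into the large subunit, had 29.4, 26.2, 26.5, 29.3 and 28.1 CPM at 100 ng/mL against 23.5, 20.9, 20, 21.5 and 21.6 CPM in unstimulated A to E. Its groups did not overlap and it was called higher by 0.37 ± 0.06 (edgeR adjusted p = 8.87e-05). Mrps18b had 9.5 to 17.8 CPM at 100 ng/mL against 10.7 to 13.7 CPM in unstimulated cells, a log2 difference of 0.13 ± 0.13 that was not called. Mrps18c, in the platform of the small subunit, had 6.29 to 7.35 CPM at 100 ng/mL against 6.08 to 6.88 CPM in unstimulated cells and differed by 0.05 ± 0.07, also not called. Whether the 3 changes differ from each other was not tested.

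In the small subunit, 2 of 17 tested homologues of bacterial proteins were called higher and 1 lower, and 2 of 9 mitochondria-specific proteins were called higher and 1 lower. These are 11.8 and 22.2% higher and 5.88 and 11.1% lower, against 21.4% higher and 21.5% lower among all genes tested. Mrps2, a homologue of bacterial S2, had 43.8, 42.2, 39.3, 43.3 and 41.6 CPM at 100 ng/mL against 34.0, 33.7, 34.2, 34.5 and 35.5 CPM in unstimulated A to E. The unstimulated libraries were close together and all lay under the treated ones, with a log2 fold change of 0.29 ± 0.05 (edgeR adjusted p = 0.000131). Mrps27, a pentatricopeptide repeat protein of the small subunit, had 36.4, 40.7, 27.0, 34.8 and 31.5 CPM at 100 ng/mL against 25.6 to 28.7 CPM in unstimulated cells. Library C at 100 ng/mL lay inside the unstimulated range, and the log2 fold change was 0.32 ± 0.10 (edgeR adjusted p = 0.0133). Mrps11 and Mrps31 were called higher by 0.19 ± 0.06 and 0.14 ± 0.05, Mrps31 in only 3 of 15 fits that left out 1 library. Mrps12, part of the decoding centre, had 15.2 to 22.1 CPM at 100 ng/mL against 17.2 to 24.1 CPM in unstimulated cells and was not called (log2 difference −0.04 ± 0.10).

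At 100 ng/mL 3 members fell. Mrps16, a homologue of bacterial S16, had 6.6, 8.15, 7.53, 8.28 and 8.14 CPM at 100 ng/mL against 8.89, 8.45, 8.87, 9.71 and 9.51 CPM in unstimulated A to E. The groups did not overlap, and the log2 fold change was −0.23 ± 0.07 (edgeR adjusted p = 0.015). Its pseudogene copies Gm9173 and Gm12244, at 96.27 and 96.08% identity, were also called lower, by −0.23 and −0.27, so the 3 rows may share reads. Mrps23, found only in mitochondria, had 32.2 to 41.8 CPM at 100 ng/mL against 41.4 to 46.2 CPM in unstimulated cells, and was called lower by −0.17 ± 0.07 (edgeR adjusted p = 0.0456). That call held in 6 of 15 fits that left out 1 library, and without 100 ng/mL C the value was −0.12 (adjusted p = 0.0685). Mrpl9, a homologue of bacterial L9, had 45.3 to 48.9 CPM at 100 ng/mL against 47.9 to 55.5 CPM in unstimulated cells, a log2 fold change of −0.12 ± 0.04 (edgeR adjusted p = 0.0316). Its call held in 11 of the 15 fits, and without the 3 libraries named above it was −0.11 (adjusted p = 0.0587).

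**Figure D2:**
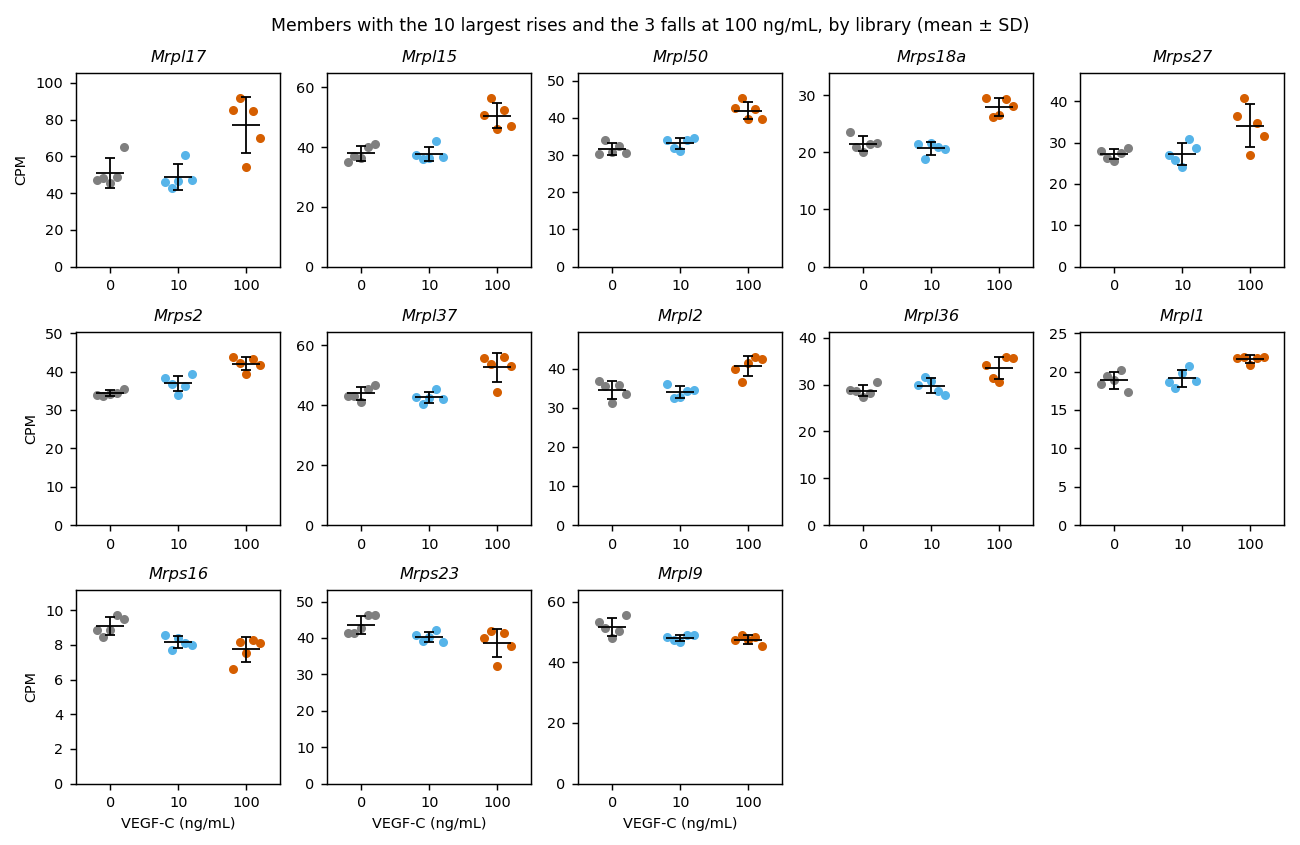
CPM by VEGF-C dose (0, 10 and 100 ng/mL, 5 libraries each, A to E from left to right; bars are mean ± SD) for the members with the 10 largest rises and the 3 falls among those called at 100 ng/mL. In Mrpl15, Mrpl50, Mrps18a, Mrps2, Mrpl36 and Mrpl1 all 100 ng/mL libraries lie above the unstimulated ones, in Mrps16 all lie below, and the axes start at 0.

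The 54 members that did not pass the test had log2 fold changes between −0.16 and 0.21 at 100 ng/mL. Of the 21 calls, 10 held in all 15 fits that left out 1 library and in all 12 other settings, and they were the 10 largest rises (Mrpl17, Mrpl15, Mrpl50, Mrps18a, Mrps27, Mrps2, Mrpl37, Mrpl2, Mrpl36 and Mrpl1). The fall of Mrps16 was called in all 15 such fits and in 11 of the 12 other settings. It was not tested in the remaining setting, so it kept its call in all 26 fits that tested it. Within a group, the members varied less between libraries than most genes. Their median SD within groups was 0.10 on the log2 CPM scale, against 0.17 over all genes tested. The genes compared were not matched for expression level, on which this SD can depend.

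At 10 ng/mL none of the 75 members was called against unstimulated cells, where 0% of all genes tested were called. Unadjusted p under 0.05 was reached by 6 members (edgeR) against 4.78% of all genes, and limma-voom and the DESeq2 Wald test also called 0 members. The 6 were Mrpl9, Mrpl28, Mrpl40, Mrps2, Mrps16 and Mrps17, of which Mrps2 alone was higher at 10 ng/mL, by 0.10 ± 0.05. The median log2 difference was −0.06 over the members and 0.00 over all genes, 64 of the 75 values were negative, and all 75 lay within 15% of no change. Mrpl28 had the smallest unadjusted p, with 29.4 ± 1.56 CPM at 10 ng/mL against 32.8 ± 1.12 CPM in unstimulated cells (SD, n = 5 each, log2 difference −0.16 ± 0.06, adjusted p = 0.969). Mrps17, a homologue of bacterial S17, had 31.2 to 32.6 CPM at 10 ng/mL against 33.4 to 36.1 CPM in unstimulated cells, and was the only member whose groups did not overlap, where 0.436% of all genes lay wholly lower and 0.878% wholly higher. Mrpl9 had 46.6 to 49.0 CPM at 10 ng/mL against 47.9 to 55.5 CPM in unstimulated cells (log2 difference −0.10 ± 0.04, adjusted p = 0.969).

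Between the doses, 26 of the 75 members were called higher at 100 than at 10 ng/mL and 0 lower, 34.7% against a background of 19.9% higher and 20.6% lower among all genes tested. Of the 26, 17 were Mrpl and 9 Mrps genes. In either direction 34.7% of members were called, against 40.5% of all genes. The unadjusted p (edgeR) was under 0.05 in 30 of the 75 members, against 48.1% of all genes. Limma-voom and the DESeq2 Wald test also called 0 lower, and the fit with surrogate variables called 1. The median log2 fold change was 0.12 over the members and 0.01 over all genes, and 13 members had all 100 ng/mL libraries above all 10 ng/mL libraries, where 12.7% of all genes did. This comparison and the one with unstimulated cells share the 100 ng/mL libraries. The smallest p-values belonged to Mrps18a (0.43 ± 0.06), Mrpl50 (0.34 ± 0.05), Mrpl15 (0.42 ± 0.07), Mrps11 (0.32 ± 0.06) and Mrpl37 (0.30 ± 0.06), with edgeR adjusted p of 2.67e-05, 0.000106, 0.00012, 0.000742 and 0.00122. Mrps11 had 17.0, 17.2, 15.1, 18.4 and 16.4 CPM at 100 ng/mL against 13.2, 12.4, 14, 14.2 and 13.9 CPM at 10 ng/mL. Its unstimulated libraries, at 14.1 to 15.4 CPM, lay between the groups and overlapped both. Mrpl11 and Mrps18c were called between the doses (0.21 ± 0.06 and 0.18 ± 0.07) and not against unstimulated cells. The Mrpl11 call held in all 15 fits that left out 1 library, and the Mrps18c call in 8 of 15 such fits and 5 of 12 other settings. Mrps16, Mrps23 and Mrpl9 were not called between the doses, with log2 differences of −0.08 ± 0.07, −0.06 ± 0.07 and −0.02 ± 0.04.

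Summed over all 77 genes, the members' level was 1946.7, 2077, 1753.8, 2014.6 and 1879.2 CPM in 100 ng/mL libraries A to E. The sums at 10 ng/mL were 1735.7, 1677.8, 1685.3, 1838.7 and 1744.3 CPM, and those of unstimulated cells 1783.3, 1769.6, 1701.3, 1836.4 and 1936.4 CPM. The 3 groups overlapped, and the mean at 100 ng/mL was 1.07 times that of unstimulated cells. The members took 0.172 to 0.209% of counts at 100 ng/mL against 0.171 to 0.204% in unstimulated cells. Summed Mrpl over summed Mrps CPM was 1.91 to 1.96 at 100 ng/mL, 1.87 to 1.91 at 10 ng/mL and 1.85 to 1.91 in unstimulated cells. Single libraries carried many members at once. Library 100 ng/mL B held its group's highest value in 44 of 75 members, 10 ng/mL D in 42 and unstimulated E in 46, where 32.8, 31.6 and 30.9% of all genes tested had their highest value. Library 100 ng/mL C held the lowest value in 42 members and unstimulated C in 40, where 29.9 and 18.3% of all genes had their lowest. What these libraries share beyond the counts was not tested.

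**Figure D3:**
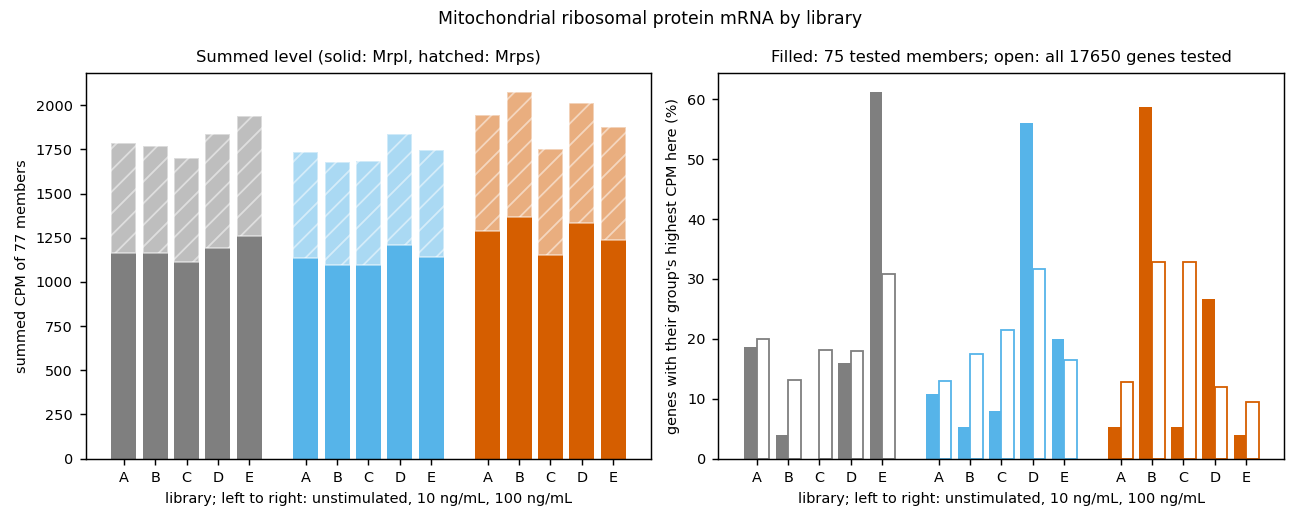
Left, summed CPM of the 77 members per library, with Mrpl genes as solid and Mrps genes as hatched bars; right, the share of the 75 tested members (filled) and of all 17650 genes tested (open) whose highest value in the group falls in that library. Colours run from unstimulated (grey) over 10 ng/mL (blue) to 100 ng/mL (orange); 100 ng/mL B, 10 ng/mL D and unstimulated E hold the tallest filled bars of their groups.

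Levels of different genes were compared as CPM per kilobase of the length listed in the table. In unstimulated cells the 75 tested members ran from 1.74 to 71 CPM per kilobase with a median of 12.3, and the median was 13.5 for Mrpl and 8.41 for Mrps genes. Mrps6, a homologue of bacterial S6, led with 71 ± 9.82 CPM per kilobase, Mrpl54 followed at 36.8 ± 2.11 and Mrpl36 at 31.9 ± 1.28 (SD, n = 5 each). Mrps6 was above the next by more than its spread, while Mrpl36 and its neighbour Mrpl34, at 30.8 ± 4.03, did not differ beyond theirs. Mrps6 shares exons on the same strand with Slc5a3, a solute transporter gene, so its reads may be mixed with it. The lowest tested member was Mrps10 with 1.74 ± 0.137 CPM per kilobase, over a listed length of 8085 bases where its principal GENCODE M21 transcript has 1018. Per length of the principal transcript Mrps10 stood at 13.9 CPM per kilobase, and only 5 of the 10 highest members were the same. Mrpl33 held the largest difference, with 3.97 CPM per kilobase by listed and 58.8 by principal length.

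Mrps36 and Mrpl53 were not tested. Mrps36, which carries a ribosomal name but is known as a subunit of the 2-oxoglutarate dehydrogenase complex, had 0.13 ± 0.0366 CPM per kilobase in unstimulated cells and 77 estimated counts in all 15 libraries. Its 4 pseudogene copies at 95.47% identity or more could share its reads. Mrpl53 had 41 estimated counts in all, over a listed length of 94 bases where the GENCODE M21 exons cover 790, and its exons overlap those of Gm42688 on the same strand. These levels say little about either gene.

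**Figure D4:**
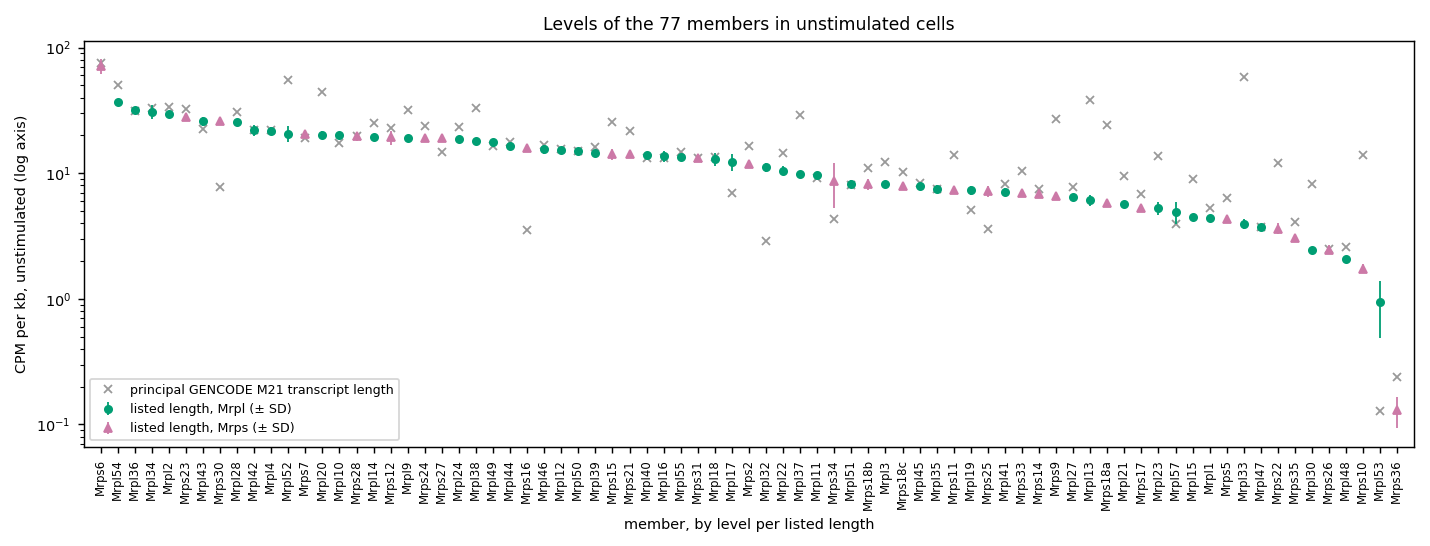
CPM per kilobase of the 77 members in unstimulated cells on a log axis, ordered by level per listed length (circles Mrpl, triangles Mrps, mean ± SD of 5 libraries), with the value per principal GENCODE M21 transcript as grey crosses. Mrps6 is highest by both lengths, and crosses far from their points, as for Mrpl33 and Mrps10, mark genes whose listed length differs from the transcript.

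The largest relative spread among unstimulated libraries was in Mrps34, Mrpl57 and Mrpl17, with coefficients of variation of 38.3, 19.3 and 15.7%. Mrps34, found only in mitochondria, had 1.96, 3.34, 3.94, 4.45 and 6.1 CPM, and its exons overlap those of Mapk8ip3 and Nme3. Mrpl57 had 8.59 to 14.8 CPM. Neither was called at 100 ng/mL, with log2 differences of −0.03 ± 0.26 and 0.05 ± 0.13. Counting was open to doubt for many members, since no source used here gives the treatment of reads that match several places. In GENCODE M21, 41 members overlap another gene, 32 of them in exons, and 14 members have a pseudogene copy in the table with at least 95% identity over 200 bases. Counts of Mrpl23 and Mrpl23-ps1, identical over 540 bases, kept a ratio of 0.971 to 1.02 across libraries. Of 39 tested members with exon overlap or such a pseudogene copy 8 were called higher and 2 lower at 100 ng/mL. Of the 36 others 10 were called higher and 1 lower, where 21.4% of all genes tested were higher and 21.5% lower. These 36 are not free of copies. Copies of any kind, also those absent from the table, were found for 19 members, and Mrpl22, Mrpl32 and Mrps10 are among the 36.

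Some members share a promoter region with a gene on the opposite strand. A divergent protein-coding gene started within 500 bases of 18 members. Of these, 7 were called higher at 100 ng/mL, where 24% of all tested members and 21.4% of all genes tested were. Whether these members differ from the others was not tested. Of the 7 partners, Ptcd2 (beside Mrps27), which acts in mitochondrial RNA processing, was called higher too, by 0.20 ± 0.06 (edgeR adjusted p = 0.0149). Ndufs6 (beside Mrpl36), a complex I subunit, was called lower by −0.20 ± 0.07 (edgeR adjusted p = 0.0386), and its exons overlap those of Mrpl36. Of the rest 4 were not called and 1 was not tested. Klc4 (beside Mrpl2) and Zfp189 (beside Mrpl50) had log2 differences of 0.18 ± 0.09 and 0.06 ± 0.10. Beside the members that were not called, 1 partner was called higher, 2 were called lower and 8 were not called.

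Split by call at 100 ng/mL, the motifs shown above gave small counts. The E-box letters were in 5 of 19 promoters of members called higher, 0 of 4 of members called lower and 2 of 49 of members not called. Of those 5 promoters 3 belong to Mrpl2, so they come from 3 of 17 genes (Mrpl2, Mrpl36 and Mrpl37). YY1 letters were in 4 of 19, 0 of 4 and 1 of 49. ETS letters were in 4 of 19 promoters of members called higher, 2 of 4 called lower and 18 of 49 not called, and NRF1 letters were in 3, 1 and 9 of these promoters. Some members have more than 1 promoter in these counts, the motifs were chosen with the calls known, and no difference between the calls was tested. The promoters of Mrpl1, Mrpl10, Mrpl49, Mrpl50, Mrps2, Mrps30 and Mrps31, all called higher, hold none of the 4.

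Other genes of the mitochondrial translation system were read from the same fit, in which 21.4% of all genes tested were called higher and 21.5% lower. Of 6 mitoribosomal proteins under other names, Ptcd3, a small-subunit protein, was called higher by 0.28 ± 0.06 and Aurkaip1, another, was called lower by −0.20 ± 0.05 (edgeR adjusted p = 0.00126 and 0.00552). Among 27 assembly factors 4 were called higher and 4 lower, with a median of −0.06. Fastkd2, an RNA granule protein, was called higher by 0.23 ± 0.05 and C1qbp, a matrix protein, by 0.35 ± 0.09, while Rbfa, which matures the small subunit, fell by 0.32 and Ngrn, which acts on the large rRNA, fell by 0.37 on the log2 scale. Of 16 translation factors 5 were called higher and 2 lower. Mrrf, the ribosome recycling factor, had 29.6 to 33.8 CPM at 100 ng/mL against 42.2 to 53.4 CPM in unstimulated cells, a log2 fold change of −0.66 ± 0.07 (edgeR adjusted p = 5.09e-06), larger in size than that of any member. The release factor Mtrf1l was also called lower (−0.35 ± 0.10), and Lrpprc, which stabilises mitochondrial mRNAs, and Gfm2, which acts in recycling, were called higher (0.34 ± 0.05 and 0.18 ± 0.04). Of 20 tRNA synthetase and amidotransferase genes 6 were called higher, Gatb (0.37 ± 0.06), Vars2 (0.28 ± 0.06) and Iars2 (0.20 ± 0.04) among them, and 1 lower, Cars2 (−0.34 ± 0.07).

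The rRNAs of these ribosomes and the mRNAs they translate were read as a list too. Of 15 mitochondrially encoded rRNAs and mRNAs 12 were called higher at 100 ng/mL and 0 lower, with a median log2 fold change of 0.48. The small-subunit rRNA mt-Rnr1 had 173 ± 28.9 CPM at 100 ng/mL against 108 ± 19.4 CPM in unstimulated cells (SD, n = 5 each), a log2 fold change of 0.68 ± 0.14 (edgeR adjusted p = 0.00106). mt-Nd2, mt-Nd1 and mt-Co1, which encode respiratory chain subunits, were called higher by 0.72 ± 0.14, 0.57 ± 0.12 and 0.59 ± 0.13. The groups did not overlap in 4 of the 15, all on the higher side, where 13.5% of all genes tested did not overlap. The list summed to 12907.3 to 17883.4 CPM at 100 ng/mL against 9284.1 to 13367.7 CPM in unstimulated cells, so these sums overlapped. Whether the 15 genes vary together between libraries was not tested. At 10 ng/mL none of the 15 was called, with a median of 0.45. Their unadjusted p (edgeR) was under 0.05 in 13, against 4.78% of all genes tested. Poly-A selection bears on their level, and whether it differed between groups was not tested. Of 12 genes for mitochondrial transcription and DNA 2 were called higher, Supv3l1 and Tefm, and 1 lower, Mgme1. Of 15 genes that stand for mitochondrial content, such as Cs, Vdac1 and Tomm40, 2 were called higher (Immt, 0.25 ± 0.04, and Phb2, 0.24 ± 0.08) and 1 lower (Tomm20, −0.31 ± 0.11). Nuclear OXPHOS genes gave 3 higher and 18 lower of 74 tested with a median of −0.08, and cytosolic ribosomal proteins 21 higher and 4 lower of 76 with a median of 0.18. The 24.3% of OXPHOS genes called lower and the 27.6% of cytosolic ribosomal proteins called higher were near the 21.5% lower and 21.4% higher of all genes tested, and their shares in the other direction, 4.05 and 5.26%, were below them. Of 10 transcriptional regulators 2 were called higher and 0 lower. Myc had 177 to 290 CPM at 100 ng/mL against 98.4 to 139 CPM in unstimulated cells (log2 fold change 1.06 ± 0.13, edgeR adjusted p = 1.35e-05), and Pprc1, a coactivator, was called higher by 0.26 ± 0.10. Gabpa and Yy1 were not called (0.23 ± 0.09 and 0.16 ± 0.07).

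**Figure D5:**
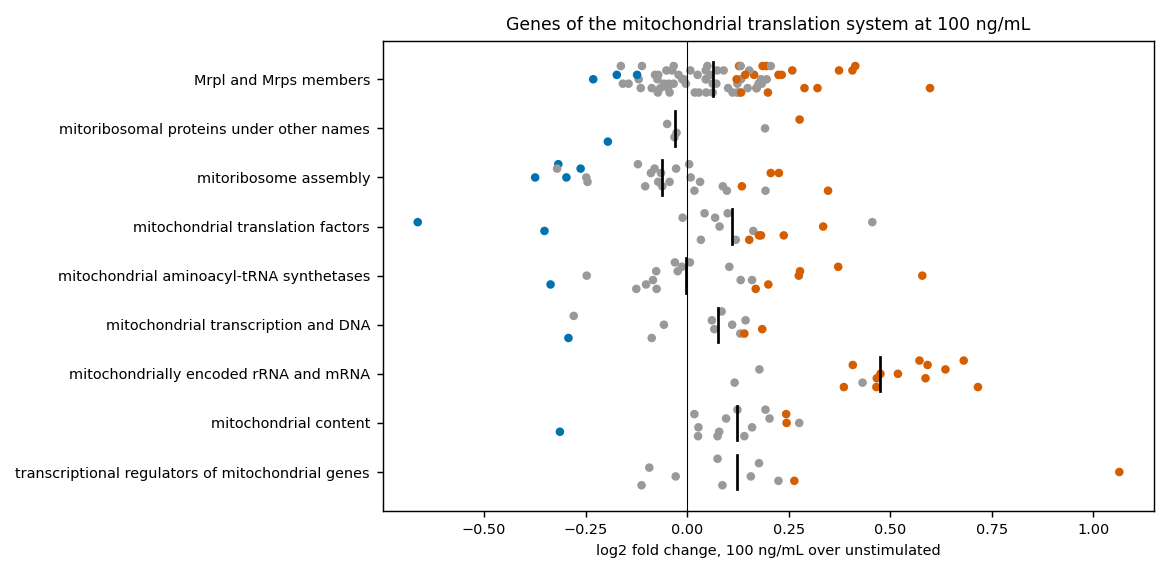
Each point is a tested gene, placed by its log2 fold change at 100 ng/mL over unstimulated cells and coloured by the call (orange higher, blue lower, grey not called), with the list's median as a black bar; the vertical offset of points within a list has no meaning. The members gather near 0 with a median of 0.06, and the mitochondrially encoded genes have a median of 0.48.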

How the data were processed

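RNA abundance in 15 libraries (3 groups of 5, from the sample titles) was read from 1 table of 45706 Ensembl genes that the authors deposited. Per the file headers it holds an estimated count and an RPKM value per gene and library, both deposited by the authors. The estimated counts were fractional in 64.3% of values, and the deposited RPKM used a library total 1.86 to 1.92 times their sum. Bowtie2, FastQC and limma, with builds mm10 and GRCm38, appear in the submitters' processing notes. No source used here gives the read counter, its strand setting, its handling of reads that match several places or the annotation release, so overlapping genes and near-identical copies are uncertain. Gene lengths are those listed in the table, and gene starts lay 2 bases below those of GENCODE M21 for most members.

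Counts were rounded to whole numbers, filtered with filterByExpr (17650 genes), scaled by TMM and tested with edgeR 4.0.16 (R 4.3.3; quasi-likelihood, group only, all 15 libraries), and p-values were adjusted by Benjamini and Hochberg's method across every gene tested, at 0.05. Standard errors are the log2 fold change over the square root of F. Precision rests on 5 libraries per group. Replicate libraries all differed by more than sampling noise (smallest chi-square per degree of freedom 8.64). The fit was tested on simulated data. Alternatives were other scalings and filters, limma 3.58.1, DESeq2 1.42.0, sva 3.50.0 (3 surrogate variables), a replicate block, 10 libraries alone, limma on log2 RPKM with pseudocounts of 1 or 0.1, and fits without single libraries or the 3 that stood apart in earlier results of these data. Copies were found with blastn 2.17.0 among GENCODE M21 transcripts. Members, lists and motifs were chosen with earlier results of these data known. Named members are the 10 largest rises and falls among those called at 100 ng/mL, the 5 smallest p (3 where none was called) of each other comparison, the 3 highest and 3 lowest levels per length, the 3 largest coefficients of variation, and 11 chosen by name (Mrps18a, Mrps18b, Mrps18c, Mrpl10, Mrpl11, Mrpl12, Mrpl1, Mrps12, Mrps30, Mrps36 and Mrpl45). From each other list up to 4 genes with the smallest p at 100 ng/mL were named.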

Additional observations from a re-analysis of the deposited data

Results flagged for a closer look

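In each group of 5 libraries a value was singled out when its gap to the nearest other library exceeded 0.71 of the group's range, checked for 31 named members and the summed level in 96 groups of 5, of which 6 were singled out. Chance singles out about 1 in 20 groups. Mrpl17 stood at 65.1 CPM in unstimulated E, where the other 4 libraries had 45.5 to 48.9 CPM, and at 60.8 CPM in 10 ng/mL D, where the others had 43 to 47.2 CPM. Library 10 ng/mL D was also high for Mrpl15, at 41.9 CPM where the others had 36.1 to 37.3 CPM, and for Mrps6, at 70.2 CPM where the others had 52.9 to 57.3 CPM. Library 100 ng/mL C was low for Mrpl37, at 44.5 CPM where the others had 53.1 to 56.1 CPM, and for Mrpl1, at 20.8 CPM where the others had 21.7 to 21.9 CPM. These 3 libraries also held the highest or lowest value of their group in 46, 42 and 42 of the 75 tested members, and the cause was not tested.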

How the results depend on the processing

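No value called for a named member changed sign under an alternative that was run. Values that were not called did: at 100 ng/mL against unstimulated cells Mrps34 ranged from -0.208 to 0.18, Mrps12 from -0.094 to 0.035, Mrpl57 from -0.041 to 0.157, Mrps18b from -0.005 to 0.225 and Mrpl45 from -0.02 to 0.032 on the log2 scale. At 100 ng/mL against unstimulated cells, the 18 members called higher became 10 with library size alone, 11 with no filter, 11 with limma on log2(RPKM + 1) and 11 on log2(RPKM + 0.1), and 28 with surrogate variables. The 3 called lower became 1 with the replicate block, 1 with only the 10 libraries compared and 1 without the 3 libraries that stand apart. Leaving out 1 library gave 12 to 19 higher and 1 to 5 lower. Between the doses, 26 higher became 17 with no filter, the 0 lower became 1 with surrogate variables, and leaving out 1 library gave 20 to 31 higher. With the replicate block the counts were 15 higher and 1 lower for 100 ng/mL against unstimulated cells, 20 higher and 0 lower between the doses, and 0 for 10 ng/mL against unstimulated cells. Whether the letters pair the libraries is not known, since their meaning is not given. Over all genes tested, deviations of same-letter libraries from their group means had correlations of -0.342 to 0.132, over 0.1 in 2 of 15 pairs. Such correlations cannot tell what the letters stand for. The ratio of summed levels, 1.07, ranged from 1.04 to 1.1. With the principal transcript length, an alternative chosen after seeing the data, 5 of the 10 highest members were the same. Over the named members, single values kept their side of the threshold in 862 checks, lost it in 44 and gained it in 6. The cause of each change was not tested. The median standard error was 0.068 on the log2 scale for the members and 0.109 for all genes tested.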
